A study of Mus musculus with 28 samples.

Results

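Gene expression was measured in the ventromedial prefrontal cortex (vmPFC) of unstressed female mice that had received a virus against Slit1 (knockdown), and was compared with that of unstressed females that had received a LacZ virus as control. The comparison took every library labelled with the Slit1 knockdown virus and no stress and every library labelled with the LacZ virus and no stress, which gave 7 libraries against 7, or 14 of the 28 libraries of the study. Each library came from a different mouse. The other 14 libraries, 7 knockdown and 7 LacZ, came from females that had gone through 3 days of the stress protocol named sCVS in the labels, and are used here only to set values beside the unstressed ones. Mouse strain, age, viral serotype and promoter, the knockdown sequence, the cell types that the virus enters and the time between injection and dissection were not given in the sources used here. The tissue was punched from 1 mm brain slices after viral expression and placement had been checked under a fluorescence microscope, and the RNA was depleted of ribosomal RNA before library preparation. It holds all cell types of the punch, infected or not, so fewer cells of a type and less RNA per cell cannot be told apart.

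Slit1 is 1 of the secreted Slit glycoproteins, ligands of the Robo receptors on axons and migrating cells. Binding of a Slit to a Robo recruits srGAP proteins, which act on the actin cytoskeleton and make the growth cone turn away from the Slit source. In the cortex, Slit and Robo proteins are best known for guiding callosal and corticofugal axons and for shaping dendrites during development.

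The punches carried the markers of cortical tissue. Slc17a7, the vesicular glutamate transporter of cortical excitatory neurons, was between 13.2 and 235 CPM (counts scaled to a common library total) in the knockdown libraries and between 40.1 and 451 CPM in the LacZ libraries. Gad1, the GABA-synthesising enzyme of interneurons, was between 100 and 251 CPM in knockdown and between 125 and 177 CPM in LacZ. The choroid plexus gene Ttr was at most 1.2 CPM in any of the 14. Drd2, a receptor of striatal neurons, was 10.3 CPM in knockdown replicate 6, 7.14 CPM in knockdown replicate 2 and at most 2.63 CPM in the other knockdown libraries. It was 10.7 CPM in LacZ replicate 6 and at most 1.76 CPM in the other LacZ libraries. Over 12 striatal markers the mean log2 deviation from each gene's mean was 1.35 in knockdown replicate 6 and 1.28 in LacZ replicate 6. In knockdown replicate 2 it was 0.03, although the summed CPM of these markers was highest there, at 666.

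The libraries varied far more among themselves than between the viruses. Total gene counts per library were 30647778 to 44281716 in the knockdown group and 31084984 to 40872632 in the LacZ group. The 1st principal component of all 28 libraries held 58.8% of the variance of log2 CPM, and the 2 unstressed groups differed by 0.0457% of the variance along it. For each library, log2 CPM less the gene's mean over the 28 libraries was regressed on the GC content of the exons. The component followed this slope (Pearson's r = 0.996 over 28 libraries, a description), and both come from the same centred values. The slope is called the GC slope here and is given in log2 units per 10 percentage points of GC. Its sign is relative to the average library. The GC slope ran between -1.23 in knockdown replicate 7 and 0.91 in knockdown replicate 1, and between -0.75 in LacZ replicate 7 and 1.28 in LacZ replicate 1. Over the 14 unstressed libraries it was related to the share of counts from the mitochondrial genome (r = -0.871, Spearman's rho = -0.921, permutation p = 2.00e-05, adjusted over 4 relations 6.00e-05). Without the 2 libraries farthest from the median slope r was -0.856. The results below are from a fit of the group alone, and values from a fit with the GC slope as covariate are named as such. The mouse number in the title was above 20 in 5 of 7 knockdown and 2 of 7 LacZ libraries; no label calls it a batch.

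Slit1 itself was not measurably lower in the knockdown libraries. Its counts were 37.1, 59.9, 14.9, 21.4, 14.1, 24 and 9.48 CPM in knockdown replicates 1 to 7 and 56.3, 36.2, 12.6, 16.5, 16.9, 17.1 and 14.9 CPM in LacZ replicates 1 to 7. The groups overlapped over nearly their whole ranges, and the highest of all 14 values was that of a knockdown library. The log2 fold change of knockdown over LacZ was 0.09 ± 0.43 (SE, edgeR quasi-likelihood test, n = 7 each, adjusted p = 1.0), with a 95% interval of -0.79 to 0.96. The lower end of that interval equals a reduction of 42.1%. With the GC slope as covariate the fold change was 0.11 ± 0.17 and the interval -0.25 to 0.47, so that its lower end equals a reduction of 15.7%. An exact two-sided permutation test over all 3432 splits gave p = 0.919 on log2 CPM and p = 0.743 on log2 CPM with the GC slope removed, where the smallest p the design allows is 0.000583. Leaving out 1 library at a time moved the fold change between -0.27, without knockdown replicate 2, and 0.44, without LacZ replicate 1.

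The Slit1 counts cover the whole gene, chr19:41600257-41743665 on the minus strand of GRCm38. The span is 143409 bases long and exons make up 4.13% of it, so fragments of unspliced transcript in introns were counted along with those of mature mRNA. No file holds exon counts, and the level of mature Slit1 mRNA alone was not analysed here. Among the 14 libraries Slit1 followed the GC slope (r = 0.893, rho = 0.873, permutation p = 3.00e-05, adjusted 6.00e-05; r = 0.821 without the 2 farthest libraries). Within the knockdown group r was 0.871 and within the LacZ group 0.924.

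The other Slit and Robo genes overlapped between the viruses as well. Slit2, the ligand best known at the midline, averaged 182 ± 84.4 CPM in knockdown and 184 ± 69.9 CPM in LacZ (SD, n = 7 each; log2 fold change -0.02 ± 0.29). Slit3 averaged 199 ± 101 CPM in knockdown and 172 ± 38.7 CPM in LacZ (0.21 ± 0.23). Its knockdown values lay between 111 and 211 CPM except for 415 CPM in replicate 2, without which the log2 fold change was -0.08.

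Among the receptors, Robo1 averaged 295 ± 80.0 CPM in knockdown and 275 ± 103 CPM in LacZ (0.11 ± 0.23), and Robo2 594 ± 315 CPM in knockdown and 582 ± 238 CPM in LacZ (0.03 ± 0.31). Robo3, whose main isoform in mammals lacks Slit binding and promotes midline crossing, had 1.55 to 5.16 CPM in knockdown and 1.48 to 6.83 CPM in LacZ (-0.41 ± 0.45). Robo4, a receptor of endothelial cells, had 0.737 to 3.18 CPM in knockdown and 0.751 to 2.95 CPM in LacZ (0.11 ± 0.36). No receptor had knockdown values outside the LacZ range as a group.

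Downstream and co-binding genes showed the same overlap. The log2 fold changes of the effectors Srgap1, Srgap2 and Srgap3 were 0.27 ± 0.21, 0.05 ± 0.17 and 0.09 ± 0.20. Srgap1 was at 75.9 CPM in knockdown replicate 2 and at 23.6 to 35.2 CPM in the other knockdown libraries, against 23.6 to 37.9 CPM in LacZ. Nell2, a secreted ligand of Robo3, was at -0.11 ± 0.19, and the Slit-binding matrix receptor dystroglycan, Dag1, at 0.07 ± 0.20. Of the 15 genes in the Slit, Robo and srGAP list, 14 passed the filter on low counts, 10 with positive and 4 with negative fold changes, and their median was 0.07 on the log2 scale, beside -0.01 over all 19171 genes tested. That median was -0.08 without knockdown replicate 2. None of the 14 had an adjusted p under 0.05, a call made for 0.0% of all genes tested.

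**Figure D1:**
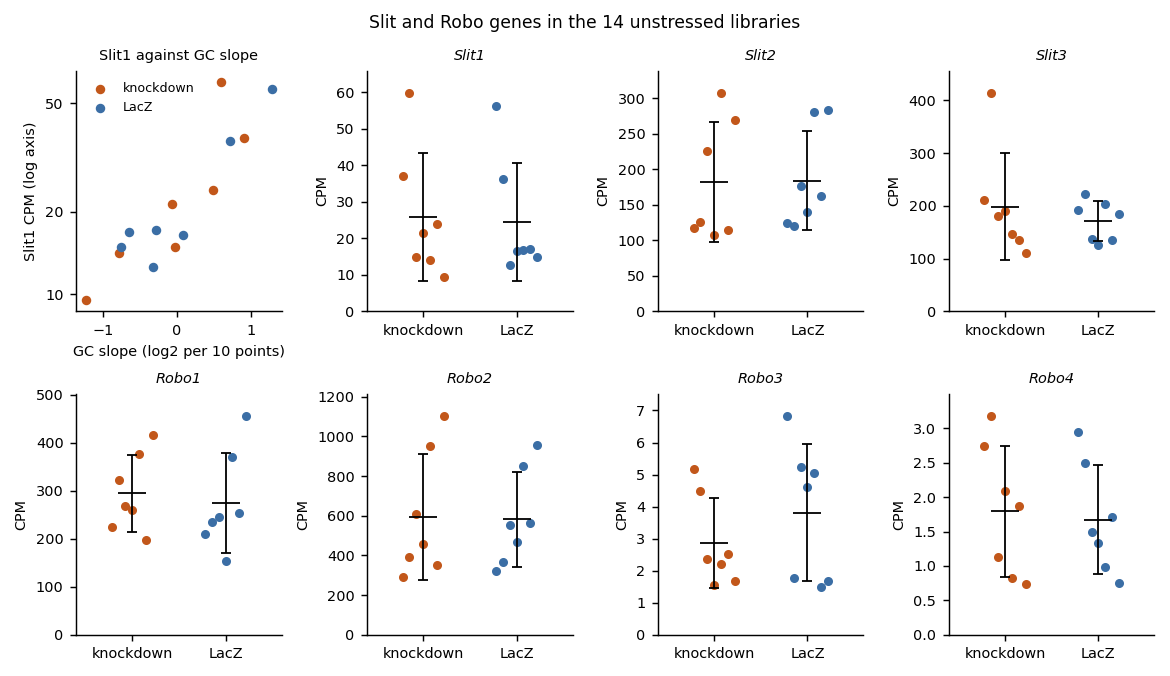
The first panel plots Slit1 CPM (log axis) against the GC slope, and the others plot CPM of each Slit and Robo gene from 0, knockdown left and LacZ right, with 1 point per mouse and the mean ± SD in black. The groups overlap in every panel, and for Slit1 the knockdown values run between 9.48 and 59.9 CPM and the LacZ values between 12.6 and 56.3 CPM.

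Other guidance families were measured in the same way. Among 21 semaphorins, plexins and neuropilins, cues and receptors of axon repulsion, 11 had positive and 10 negative fold changes with a median of 0.03, and the smallest unadjusted p values belonged to genes such as Sema5b (log2 fold change 0.44 ± 0.36) and the receptor Nrp1 (0.16 ± 0.14). Nrp1 had 109 to 148 CPM in knockdown and 82.5 to 143 CPM in LacZ, with LacZ replicates 1 and 2 below every knockdown library. Among 25 ephrins, netrins and their receptors, 10 were positive and 15 negative with a median of -0.05, a sign that turned under several other settings (0.19 with the title number above 20 as covariate). Ephb1, an ephrin-B receptor, had 23.5 to 104 CPM in knockdown and 32.1 to 43.7 CPM in LacZ (0.33 ± 0.21), with knockdown replicates 7 and 2 holding the lowest and the highest value. The RNA interference machinery is the route by which short hairpins act, though the knockdown sequence of this virus was not given. It had 7 positive and 7 negative of 14 genes with a median of 0.00. Ago2, the slicing Argonaute, stood at 0.22 ± 0.18 and Dicer1, the nuclease that processes hairpins, at -0.06 ± 0.07.

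Across all genes no difference between the viruses passed the test. Of 19171 genes tested, 0 had an adjusted p under 0.05 (0.0%) by edgeR's quasi-likelihood test, by DESeq2 and by limma, and the same count was 0 under each of 27 alternative settings. At an unadjusted p under 0.05 there were 172 genes (0.897%) by edgeR, of which 78 (0.407%) were higher and 94 (0.49%) lower in knockdown, and 253 by DESeq2 and 694 by limma's voom with library quality weights. With the GC slope as covariate the count was 970 (5.06%), with 272 (1.42%) higher and 698 (3.64%) lower, and the smallest adjusted p was 0.92. If no gene differed, a share of 0.05 would fall under that unadjusted threshold on average. The 0.897% of the fit of the group alone was well below that share, and the 5.06% with the covariate was near it. The reason was not tested. The smallest adjusted p under any setting was 0.697, with surrogate variables as covariates.

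The fold changes were small throughout. From the 5th to the 95th percentile the log2 fold changes of the 19171 genes ran between -0.41 and 0.41, and 84 genes lay at 2-fold or beyond. The median SE was 0.31 without and 0.16 with the GC slope as covariate. The 95% interval of a gene's fold change excluded a 2-fold change in either direction for 12856 genes (67.1%), and for 16380 genes (85.4%) with the covariate. It excluded a 1.5-fold change for 5924 genes (30.9%), and for 11752 (61.3%) with the covariate. Precision grew with level: a 2-fold change was excluded for 36% of the 4199 genes under 1 CPM, 60.1% of the 5911 genes between 1 and 10 CPM, 82.8% of the 6773 genes between 10 and 100 CPM and 95.4% of the 2288 genes above that.

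The genes were also counted by annotated kind. Of 15222 protein-coding genes, 47 were higher and 59 lower in knockdown at an unadjusted p under 0.05, beside 0.407% higher and 0.49% lower of all genes tested, and of 2880 long noncoding genes 27 were higher and 21 lower. Of 888 pseudogenes 0 were higher and 13 lower, 561 had a negative and 327 a positive fold change, and their median was -0.07. Of all genes tested 10150 had a negative and 9020 a positive fold change. With the GC slope as covariate 203 protein-coding genes were higher and 600 lower, 50 long noncoding genes higher and 46 lower, and 6 pseudogenes higher and 47 lower, beside 1.42% higher and 3.64% lower of all genes tested. In 1 gene (0.00522%) all 7 knockdown values were above all 7 LacZ values, and in 0 genes (0.0%) below. That gene, the long intergenic noncoding RNA 4921513I03Rik, lies at chr10:120765732-120778886 on the plus strand and is named for its non-overlap after its values were seen. It had 7 to 16 counts per knockdown library and 2 to 11 counts per LacZ library (median 0.285 CPM in knockdown and 0.142 CPM in LacZ; log2 fold change 0.95 ± 0.27, edgeR adjusted p = 1.0).

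The genes with the smallest unadjusted p among annotated genes of at least 1 CPM are described next, 12 with higher and 12 with lower values in knockdown. Their fold changes kept their direction under all 27 alternatives, and each had an adjusted p of 1.0 by edgeR. The alternatives refit the same libraries from which the genes were chosen, so a kept direction is not a separate test of them. The 12 with higher values come first. Itih5, a heavy chain of the inter-alpha-trypsin inhibitor family that binds hyaluronan, had 30.4, 28.3, 38.1, 35.4, 46.7, 39.2 and 37.1 CPM in knockdown replicates 1 to 7 and 26.3, 29.9, 31.5, 22.8, 24.9, 30.3 and 28.4 CPM in LacZ replicates 1 to 7. Of the knockdown values 5 lay above the whole LacZ range and none below the LacZ mean (log2 fold change 0.39 ± 0.13, SE, edgeR adjusted p = 1.0).

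Pmp22, a membrane protein of compact peripheral myelin that other cells also make, had 5.7 to 10.3 CPM with a median of 9.47 in knockdown and 3.86 to 7.81 CPM with a median of 6.91 in LacZ (0.48 ± 0.17). Enpp1, an ectonucleotidase that splits extracellular ATP, had 6.39 to 14.1 CPM in knockdown and 4.03 to 10.2 CPM in LacZ (0.63 ± 0.26). Every knockdown library was above the LacZ mean of log2 CPM for Enpp1, as for Rnu12, Itih5, Snx24, Clybl and Sash1.

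Creg1, a secreted glycoprotein of the endolysosomal system, had 12.2 to 30.6 CPM in knockdown and 13.8 to 19.4 CPM in LacZ (0.40 ± 0.16), with the 2 lowest knockdown values inside or below the LacZ range. Pon3, a lactonase of the paraoxonase family, averaged 8.05 ± 2.88 CPM in knockdown and 4.95 ± 1.97 CPM in LacZ (0.70 ± 0.26). Clybl, a mitochondrial lyase that clears citramalyl-CoA, averaged 30.1 ± 3.07 CPM in knockdown and 25 ± 3.25 CPM in LacZ (0.27 ± 0.10). The ranges of all 3 genes overlapped between the groups.

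Snx24, a sorting nexin, averaged 46.5 ± 8.44 CPM in knockdown and 36.5 ± 3.93 CPM in LacZ (0.35 ± 0.13). Sash1, a scaffold with SAM and SH3 domains, averaged 88.6 ± 13 CPM in knockdown and 73.3 ± 8.88 CPM in LacZ (0.27 ± 0.11). Dpf3, a subunit of the BAF chromatin remodelling complex, was at 19.6 CPM in knockdown replicate 2 and at 9.08 to 12.3 CPM in the other knockdown libraries, against 8.13 to 11.5 CPM in LacZ (0.42 ± 0.16). Tbx22, a T-box transcription factor, was spread from 0.196 to 5.0 CPM in knockdown and from 0.214 to 0.851 CPM in LacZ, and its fold change of 1.47 ± 0.58 became 0.37 under limma's quality weights. Gzmk, a granzyme of cytotoxic lymphocytes, had 3.98 to 13 CPM in knockdown and 3.66 to 7.33 CPM in LacZ (0.69 ± 0.28), with 5 knockdown libraries above every LacZ library.

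Rnu12, the U12 small nuclear RNA of the minor spliceosome, which removes a rare class of introns, had the smallest p of the higher genes. Its values were 2.08, 1.9, 1.48, 3.38, 3.74, 8.93 and 1.47 CPM in knockdown replicates 1 to 7 and 1.02, 1.64, 2.42, 1.34, 0.878, 1.56 and 1.54 CPM in LacZ replicates 1 to 7 (log2 fold change 1.15 ± 0.37, edgeR adjusted p = 1.0). Replicate 6 of the knockdown group was far above the rest, and without it the log2 fold change was 0.66. The gene lies at chr15:83149644-83149794 on the plus strand of GRCm38, and its transcript is shown because it is the only small nuclear RNA among the named genes. The capitals mark the run that pairs with the branch site of minor introns, found once, at bases 18 to 24 of the 151 bases:
Rnu12: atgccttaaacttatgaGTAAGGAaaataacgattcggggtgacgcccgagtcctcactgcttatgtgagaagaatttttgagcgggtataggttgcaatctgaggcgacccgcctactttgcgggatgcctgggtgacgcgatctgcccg

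The other 12 had lower values in knockdown. Mrpl30, a protein of the large subunit of the mitochondrial ribosome, had 22.4, 18.5, 23.5, 22.2, 23.5, 22.8 and 18.5 CPM in knockdown replicates 1 to 7 and 27.3, 26.4, 26.8, 29.6, 28.8, 25.5 and 23.4 CPM in LacZ replicates 1 to 7. The highest knockdown and the lowest LacZ value all but touched, at 23.5 and 23.4 CPM, and the log2 fold change was -0.31 ± 0.11 (edgeR adjusted p = 1.0). Snu13, a protein of the U4 small nuclear ribonucleoprotein, had 20.7 to 39.8 CPM in knockdown and 34.8 to 42.2 CPM in LacZ (-0.35 ± 0.12), with 6 of 7 knockdown libraries under the lowest LacZ library.

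Plk2, a kinase induced by synaptic activity that takes part in homeostatic downscaling, had 117 to 159 CPM with a median of 131 in knockdown and 138 to 192 CPM with a median of 165 in LacZ (-0.32 ± 0.12). Asns, asparagine synthetase, averaged 63.6 ± 11.6 CPM in knockdown and 80.9 ± 10.7 CPM in LacZ (-0.35 ± 0.13). G3bp2, a core protein of stress granules, had 69.0 to 87.5 CPM in knockdown and 80.2 to 97.1 CPM in LacZ (-0.22 ± 0.09). For Plk2 and G3bp2 each knockdown library was below the LacZ mean of log2 CPM, although the ranges overlapped.

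Las1l, which takes part in ribosomal RNA processing, averaged 27.3 ± 4.01 CPM in knockdown and 32.7 ± 3.58 CPM in LacZ (-0.26 ± 0.11). Pnma2, a neuronal paraneoplastic antigen, averaged 58.0 ± 9.92 CPM in knockdown and 71.5 ± 11.1 CPM in LacZ (-0.30 ± 0.12). Zfp92, a zinc finger protein, had 3.72 to 5.06 CPM in knockdown and 4.2 to 8.75 CPM in LacZ (-0.48 ± 0.20). Efcab9, a regulator of the sperm CatSper channel, had 1.05 to 1.79 CPM in knockdown and 1.58 to 2.55 CPM in LacZ (-0.36 ± 0.14), and Tdrd12, a protein of the piRNA pathway, 0.843 to 1.26 CPM in knockdown and 1.02 to 1.86 CPM in LacZ (-0.47 ± 0.19). Ss18l2 (-0.35 ± 0.13) and Erich3 (-0.26 ± 0.10) completed the 12, and both had every knockdown library below the LacZ mean.

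**Figure D2:**
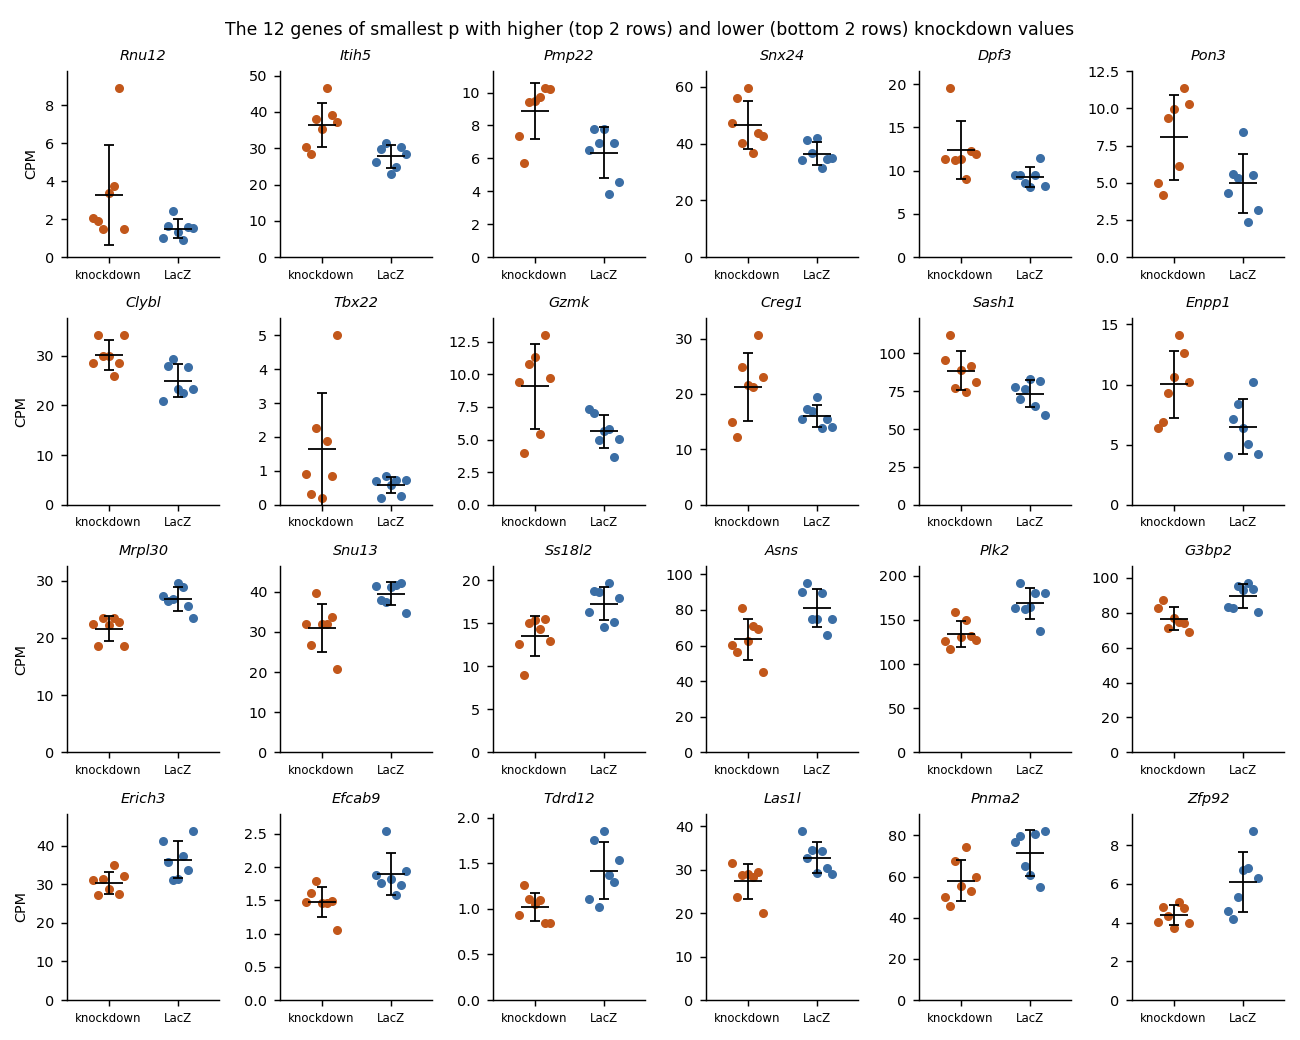
CPM of each unstressed library for the 24 genes of smallest unadjusted p, with axes from 0, knockdown left, LacZ right and the mean ± SD in black. The knockdown and LacZ ranges meet for Mrpl30, at 23.5 and 23.4 CPM, and overlap for the others.

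With the GC slope as covariate another set of genes came to the top, named here after their values were seen. Arhgap22, a GTPase-activating protein for Rac, had a log2 fold change of 0.48 ± 0.12 and Steap3, a ferrireductase of endosomes, 0.43 ± 0.13. Tuba1b, an alpha tubulin, stood at -0.43 ± 0.11 and Eno2, the neuronal enolase, at -0.34 ± 0.10. Tuba1b had 5.79 to 90.2 CPM in knockdown and 17.2 to 167 CPM in LacZ, it followed the GC slope closely (r = 0.98, a description over 14 libraries), and without the covariate its fold change was -0.52 ± 0.65. The smallest adjusted p in that fit was 0.92.

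Gene groups were then described by the signs and medians of their members. Of 811 genes in 43 lists that passed the filter, 378 had positive and 433 negative fold changes with a median of -0.01, the same median as over all genes. Over all genes tested 47.1% of the fold changes were positive, and 44.8% with the GC slope as covariate. At an unadjusted p under 0.05 there were 10 of them (1.23%, beside 0.897% of all genes tested), 7 higher and 3 lower. With the GC slope as covariate there were 52 (6.41%, beside 5.06% of all genes tested), 17 higher and 35 lower. The 10 were Rnu12, Itih5, Pmp22, Gzmk, Ttr, Mertk and Kif11 among the higher and Mrpl30, Snu13 and Uqcrc2 among the lower. No gene of any list had an adjusted p under 0.05.

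Lymphocyte genes had the largest positive median of the 43 lists. Of 22 T cell and cytotoxic lymphocyte markers, 19 had positive fold changes, with a median of 0.59 on the log2 scale (0.56 with the GC slope as covariate). Cd8a, the co-receptor of cytotoxic T cells, had 0.534 to 22.6 CPM with a median of 14.1 in knockdown and 0.667 to 9.69 CPM with a median of 4.25 in LacZ (1.04 ± 0.73). Trac, the constant region of the T cell receptor alpha chain, had 1.32 to 17.6 CPM in knockdown and 1.26 to 8.25 CPM in LacZ (0.90 ± 0.56). The fold change of Cd8a was the largest of the list. Those of the cytotoxic effectors Gzma (-0.01 ± 0.64), Prf1 (-0.02 ± 0.58) and Gzmb (0.23 ± 0.66) were smaller.

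The level varied by mouse in both groups. The markers summed to 63.6 CPM in knockdown replicate 5 and 534 CPM in knockdown replicate 6, with a median of 320, and to 75 CPM in LacZ replicate 7 and 415 CPM in LacZ replicate 1, with a median of 278. As a mean log2 deviation over the 22 genes, 4 knockdown libraries (1, 3, 4 and 6) were above every LacZ library, and knockdown replicate 5 was below every LacZ library. The mean deviation followed the GC slope with r = 0.69 over the 14 libraries. Without knockdown replicate 6 the median fold change was 0.35, and without knockdown replicate 5 it was 0.78. Whether the lymphocyte content has a part in other differences was not tested.

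Genes of the replication and mitosis machinery also had a positive median. All 21 that passed the filter had positive fold changes, with a median of 0.47 and a range of 0.29 to 0.68 over the leave-one-out fits. Kif11, the spindle motor Eg5, had 0.268 to 5.53 CPM in knockdown and 0.205 to 1.88 CPM in LacZ (1.35 ± 0.62, edgeR adjusted p = 1.0), and Birc5, the chromosomal passenger survivin, 1.25 to 7.36 CPM in knockdown and 0.632 to 4.91 CPM in LacZ (0.66 ± 0.45). Summed over the list, knockdown libraries had 199 to 631 CPM with a median of 373 and LacZ libraries 162 to 559 CPM with a median of 247. Knockdown replicates 4 and 6 were above every LacZ library, and the 2 lowest LacZ libraries were below every knockdown library. Knockdown replicates 4 and 6 were also high, and LacZ replicates 5 and 7 low, in the lymphocyte list, whereas LacZ replicates 1 and 2 had mean log2 deviations of 0.70 and 0.51 in the lymphocyte list and -0.12 and -0.35 in the mitosis list. The part of one list in the other was not tested.

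The other immune and border-tissue lists differed in sign and width. Cytokines, chemokines and acute phase genes had 11 positive and 11 negative members and a median of 0.00. Of 20 complement and phagocytosis genes 17 were positive (median 0.28, and 0.13 without knockdown replicate 6), among them Mertk, a receptor for dying cells (0.28 ± 0.12, edgeR adjusted p = 1.0), with 71.3 to 128 CPM in knockdown and 62.1 to 98.2 CPM in LacZ. Spp1, osteopontin, had 2.77 to 46.1 CPM in knockdown and 2.32 to 23.2 CPM in LacZ (1.08 ± 0.58). Of 16 microglial markers 14 were positive with a median of 0.24, which was -0.01 without knockdown replicate 6, and of 17 meningeal and fibroblast markers 13 were positive with a median of 0.42, which was 0.24 without LacZ replicate 1 and 0.79 without LacZ replicate 2. Of 19 MHC and antigen presentation genes 17 were positive with a median of 0.22, which was 0.07 with the GC slope as covariate, -0.20 with surrogate variables and 0.00 without knockdown replicate 1. With the title number above 20 as covariate the medians were 0.89 for the lymphocyte, 0.50 for the complement, 0.79 for the microglial and 0.76 for the meningeal list, and with surrogate variables the lymphocyte median was 0.25.

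Interferon-stimulated genes went the other way in their median fold change and separated the LacZ libraries among themselves. Their mean log2 deviation did not go that way, with an average of 0.01 in the knockdown and -0.01 in the LacZ libraries. Of 30, 23 had negative fold changes (median -0.15; -0.67 under limma's quality weights, -0.39 without knockdown replicate 2 and -0.02 without LacZ replicate 6). Their summed level was 1221 to 3664 CPM in knockdown, whereas the LacZ libraries fell in 2 sets, with 704, 953 and 1483 CPM in replicates 2, 1 and 7 and with 3604 to 4638 CPM in replicates 3 to 6. Ifit2, an antiviral protein that binds foreign RNA, had 106 to 509 CPM in knockdown, and in LacZ 39.2, 51.7 and 124 CPM in replicates 2, 1 and 7 and 394 to 556 CPM in the others. On the summed level 5 of 7 knockdown libraries lay between both LacZ sets.

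Several metabolic groups had negative medians. Of 24 sterol synthesis genes 22 were negative (median -0.20, with -0.24 under the GC slope and -0.11 under the title number above 20 as covariate, and -0.13 without LacZ replicate 1). On the mean log2 deviation no knockdown library was above the LacZ median. On the summed CPM 2 knockdown libraries were above it, and knockdown replicate 7, at 1685 CPM, was above the highest LacZ library, at 1318 CPM. The CPM of all genes tested were also highest in knockdown replicate 7, at a sum of 1613616. They summed to 821662 in knockdown replicate 6 and to at most 1357765 in LacZ. The part of this scaling in the high values of knockdown replicate 7 was not tested. Cyp51, the lanosterol demethylase, had 44.2 to 110 CPM in knockdown and 52.2 to 116 CPM in LacZ (-0.28 ± 0.19; -0.31 ± 0.10 with the covariate). Insig1, which holds the sterol sensor in the endoplasmic reticulum, had 32.2 to 89.5 CPM in knockdown and 42.9 to 72.1 CPM in LacZ, with knockdown replicate 7 the highest of all 14.

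Of 40 nuclear genes for subunits of oxidative phosphorylation 39 were negative, with a median of -0.21 (-0.15 with the GC slope as covariate, -0.03 with the title number above 20 as covariate and -0.08 without LacZ replicate 1). Uqcrc2, a core protein of complex III, had 83.5 to 124 CPM in knockdown and 112 to 138 CPM in LacZ (-0.21 ± 0.10, edgeR adjusted p = 1.0). The mean deviation of this list followed the GC slope with r = 0.92, and it was high in LacZ replicates 1 and 2. The 13 mRNAs of the mitochondrial genome had a median of 0.03, whose sign turned with the covariate (-0.17). Of 30 mitochondrial ribosomal proteins 26 were negative (median -0.13, and -0.04 without LacZ replicate 1). Of 36 cytosolic ribosomal proteins 30 were negative, with a median of -0.12 that was 0.21 without LacZ replicate 1 and 0.45 with the title number as covariate.

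Most neuronal groups had medians within 0.1 of 0 on the log2 scale. Of 15 excitatory neuron markers 13 were negative (median -0.04, and 0.08 without LacZ replicate 1), and of 19 interneuron markers 12 (-0.06). Of 24 glutamate receptor subunits 12 were negative (0.01), and of 13 GABA-A receptor subunits 7 (-0.07). Of 22 presynaptic release genes 14 were negative (-0.05), and of 25 postsynaptic scaffold genes 16 (-0.04). Immediate early genes, which neuronal activity induces, were negative in 22 of 30 with a median of -0.10, which was 0.05 with the title number above 20 as covariate and -0.02 without LacZ replicate 1. Npas4, an activity-dependent transcription factor, had 0.263 to 4.08 CPM in knockdown and 0.409 to 11.6 CPM in LacZ (-0.76 ± 0.76), with LacZ replicate 1 apart at the top. Of 19 neuropeptide genes 13 were negative (median -0.17, which was 0.02 with the title number as covariate and -0.02 without LacZ replicate 1); Sst, somatostatin, had 13.5 to 35.5 CPM in knockdown and 23 to 33.4 CPM in LacZ.

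Glial groups differed in how far single libraries set their median. Of 19 myelin genes 15 were positive with a median of 0.24, which was 0.07 with the GC slope as covariate and -0.13 without knockdown replicate 7. Astrocyte markers had a median of 0.13, with 12 of 19 positive, and oligodendrocyte precursor markers 0.10, with 9 of 13 positive. Glucocorticoid receptor genes and their targets had 16 of 25 positive and a median of 0.09. Among them Fkbp5, a co-chaperone of the receptor, was at 75.4 CPM in knockdown replicate 4 and at 27.7 to 46.9 CPM in the other knockdown libraries. In LacZ it had 28.1 to 44.7 CPM (0.34 ± 0.18).

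**Figure D3:**
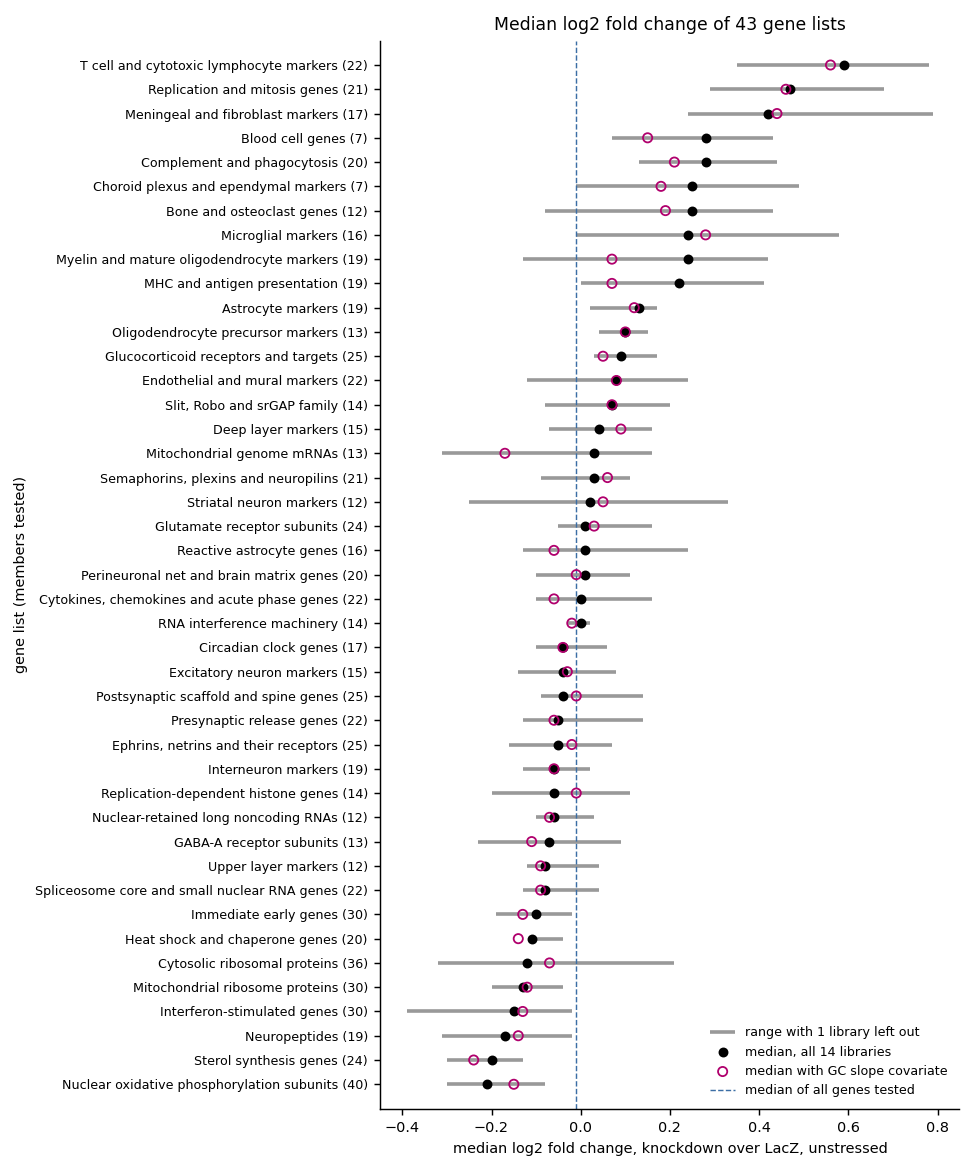
Median log2 fold change of knockdown over LacZ in unstressed mice (horizontal axis) for each of 43 gene lists, as black dots, with the GC slope as covariate as open circles, and the range over the fits that leave out 1 library as grey lines; the dashed line is the median of all genes tested. The lymphocyte list has the largest median, 0.59, and the oxidative phosphorylation and sterol lists sit at -0.21 and -0.20.

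**Figure D4:**
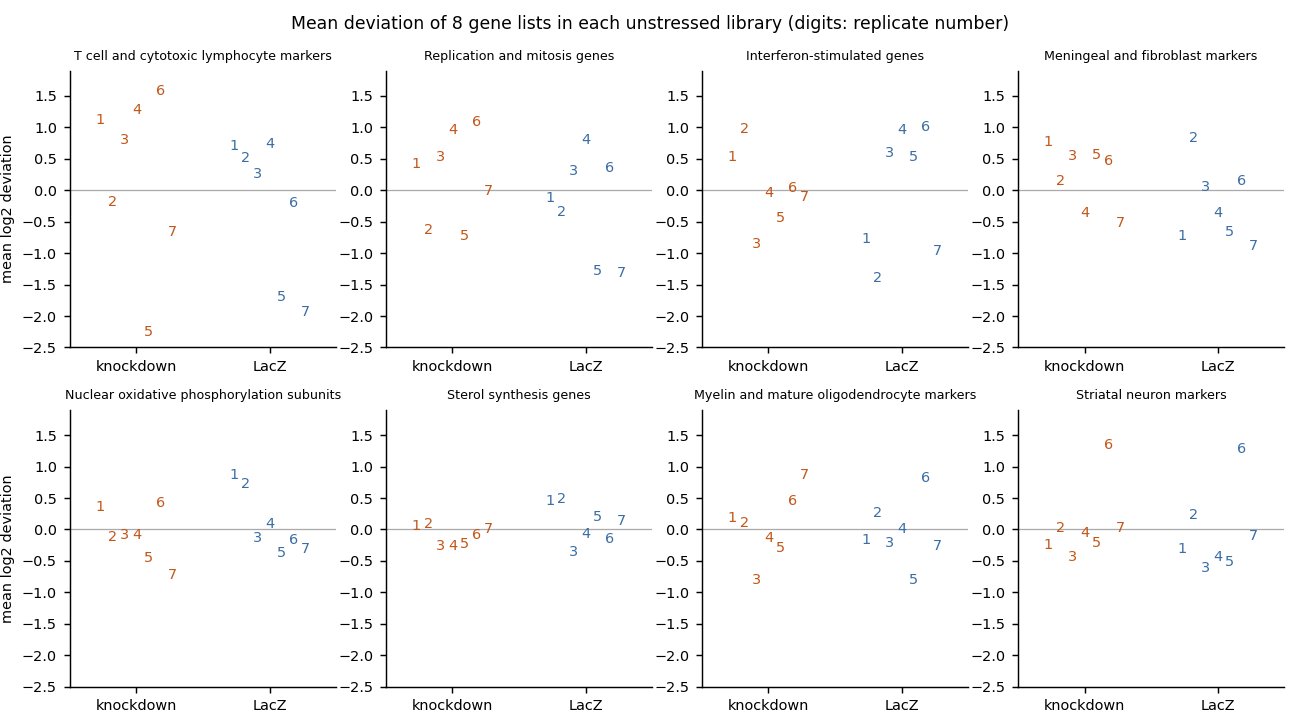
Mean log2 deviation of the genes of selected lists in each unstressed library, knockdown left and LacZ right, where each digit is the replicate number of 1 mouse. The lymphocyte list runs between -2.25 and 1.57 in knockdown and between -1.94 and 0.74 in LacZ.

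The same virus comparison in stressed mice shared no library with this one but was estimated in the same fit. It had 0 genes with an adjusted p under 0.05 (0.0%) and 158 (0.824%) at an unadjusted p under 0.05, and the difference between the stress states had 0 (0.0%) and 68 (0.355%). Of the 12 higher genes 11 had a positive fold change in stressed mice too, where their median was 0.15 beside 0.45 in unstressed mice, and of the 12 lower genes 9 were negative, with a median of -0.10 beside -0.34. Over all 19171 genes 64.9% had the same sign in both states. Of the 78 genes higher at an unadjusted p under 0.05 in unstressed mice by edgeR, 73.1% kept their sign, and of the 94 lower, 75.5%. In stressed mice 6.41% of the 78 and 4.26% of the 94 had an unadjusted p under 0.05.

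Itih5 and Enpp1 were the 2 of these genes with an unadjusted p under 0.05 in stressed mice as well. Itih5 had a log2 fold change of 0.30 ± 0.13 there and Enpp1 0.59 ± 0.26, each with an adjusted p of 1.0 by edgeR. Mrpl30 was at 0.03 in stressed mice, against -0.31 in unstressed mice, and the difference between the states had an adjusted p of 1.0 by edgeR. The median of the lymphocyte list was 0.30 and that of the mitosis list 0.28 in stressed mice, the interferon list stood at 0.09 and the sterol list at -0.14.

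**Figure D5:**
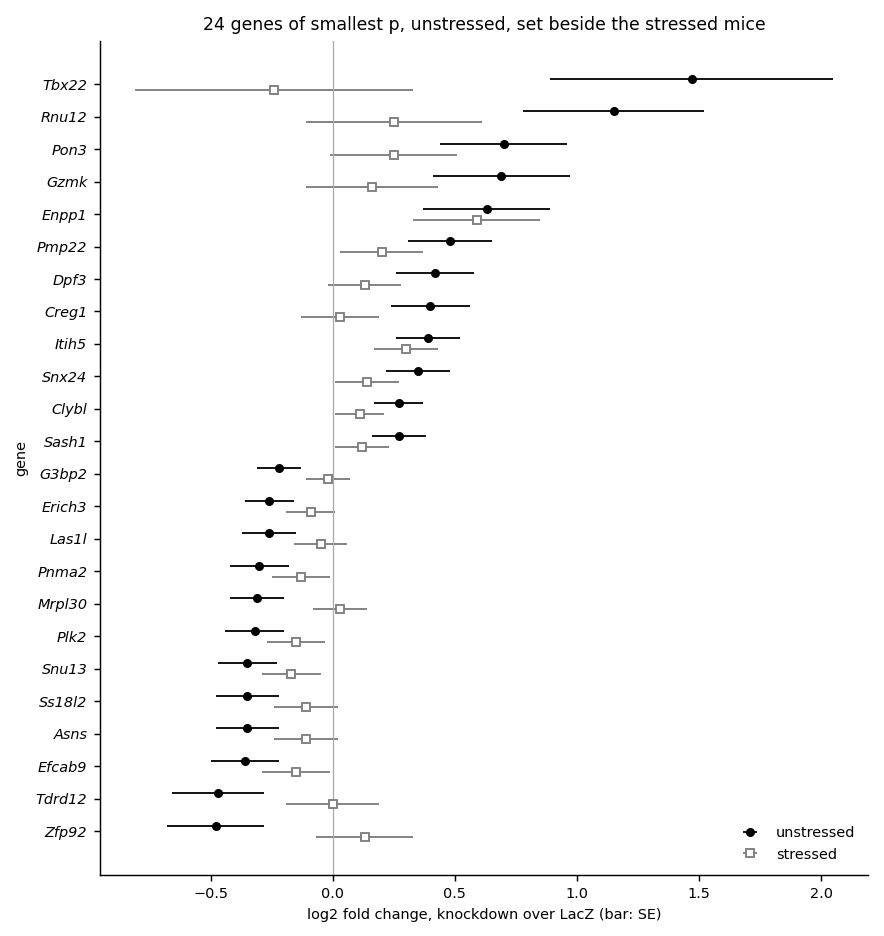
Log2 fold change of knockdown over LacZ in unstressed mice (filled) and in stressed mice (open), with SE bars, for the 24 genes of smallest unadjusted p in unstressed mice. Points of Itih5 and Enpp1 lie near each other in both states, and the Mrpl30 points lie at -0.31 in unstressed and 0.03 in stressed mice.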

How the data were processed

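Libraries were made from ribosome-depleted total RNA with a stranded kit, per the labels' protocols. The deposited values are raw gene counts that the authors made with featureCounts 1.6.2, per the file headers, on whole gene spans of Ensembl 90 (GRCm38) without regard to strand; HISAT2, Subread and DESeq2 are named in the submitters' processing notes. A fragment falling on 2 overlapping genes was given to none of them, and genes such as Gfap and B2m therefore read 0. Of 52636 genes, 19171 passed filterByExpr. edgeR 4.0.16 (R 4.3.3) with TMM factors and the quasi-likelihood test was run on all 28 libraries with 1 coefficient per group, and p-values were adjusted over all genes by Benjamini-Hochberg. CPM are scaled to the TMM-adjusted library total. Totals of 30647778 to 44281716 counts per unstressed library set the counting precision; the intervals and SEs are those of the fit. No 2 libraries were identical. Exon GC content came from the annotation, and the Rnu12 transcript from GENCODE. Alternatives used limma 3.58.1, DESeq2 1.42.0, sva 3.50.0, other filters, covariates and leaving out each library. Scripts were tested on simulated data. The genes and lists were chosen with earlier results of these data known. Named are the Slit and Robo genes, the 12 genes of smallest p in each direction at 1 CPM or more (predicted genes and pseudogenes left out), up to 4 members of smallest p per list, genes whose groups do not overlap, genes called with the GC slope as covariate and the 12 most variable genes. List members named beyond these were chosen after their values were seen.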

Additional observations from a re-analysis of the deposited data

Results flagged for a closer look

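In 20 of 94 groups tested, 1 library stood apart from the other 6 of its group by Dixon's criterion at 7 samples, and chance marks about 1 in 20 groups. Of the 20 marks, 14 fell on genes named for their large spread within groups, so their number cannot be read against that share. Several of the values also come from the same mice.

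Among the Slit genes, Slit3 was at 415 CPM in knockdown replicate 2, with the next library at 211 CPM. Among the genes of smallest p, Rnu12 was at 8.93 CPM in knockdown replicate 6 (next 3.74), Dpf3 at 19.6 CPM in knockdown replicate 2 (next 12.3) and at 11.5 CPM in LacZ replicate 6 (next 9.55). Tbx22 was at 5.0 CPM in knockdown replicate 7 (next 2.26), and Efcab9 at 2.55 CPM in LacZ replicate 3 (next 1.94).

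Most of the other marks fell on the genes with the largest spread within groups, and on knockdown replicate 1 and LacZ replicates 1 and 2. Lars2, the mitochondrial leucyl-tRNA synthetase, was at 9970 CPM in knockdown replicate 1 (next 2938) and at 20742 CPM in LacZ replicate 2 (next 3140). Gm26561 was at 3654 CPM in knockdown replicate 1 (next 919) and 7458 CPM in LacZ replicate 2 (next 811). Il31ra, a cytokine receptor subunit, was at 1130 CPM in knockdown replicate 1 (next 278) and 2273 CPM in LacZ replicate 2 (next 167). Gm19951 was at 12.3 CPM (next 2.87) and 26.1 CPM (next 6.81) in the same 2 libraries. Lars2, Gm26561 and Il31ra were also lowest together, in replicate 7 of each group. They had 21.8, 4.37 and 1.47 CPM there in knockdown and 27, 4.64 and 0.682 CPM in LacZ. Whether these whole-span counts come from the mRNAs of these genes was not tested.

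Gm5559 was at 11.2 CPM in knockdown replicate 1 (next 3.32) and 25.6 CPM in LacZ replicate 1 (next 7.85). The ribosomal protein gene Rps15 was at 37 CPM in knockdown replicate 1 (next 14.6) and 77.1 CPM in LacZ replicate 1 (next 29.9). Rpl36 was at 10.4 CPM (next 3.37) and Gm26917 at 104 CPM (next 34.5) in LacZ replicate 1. Knockdown replicate 1 and LacZ replicate 1 also had the highest GC slope of their groups, 0.91 and 1.28, and the part of the slope in these values was not tested.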

How the results depend on the processing

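The count of genes with an adjusted p under 0.05 was 0 under each of the 27 alternatives, also at 0.1. The count at an unadjusted p under 0.05, 172 by edgeR, was 802 without a filter on low counts, 694 with limma's quality weights, 80 from the 14 unstressed libraries alone, 970 with the GC slope as covariate, 718 with that covariate and the 14 libraries alone, 274 with GC loess offsets, 508 with the mitochondrial share, 435 with the title number above 20, 263 without the libraries of highest and lowest GC slope and 1307 with surrogate variables. Leaving out 1 library gave 120 to 246. The cause was not tested. Slit1's log2 fold change was -0.02 without knockdown replicate 1, -0.27 without knockdown replicate 2, -0.02 without LacZ replicate 3 and -0.00 without LacZ replicate 7, and 0.44 at the highest. No paired analysis was possible because the titles give each mouse a number of its own. The precision was lowest for genes under 1 CPM: a 2-fold change was excluded for 36% of them (57.1% with the GC slope as covariate), against 95.4% (98.6%) of the most abundant. How much of this is counting error was not tested.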
